A study of Mus musculus with 12 samples.

Results

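Gene deserts are the long stretches of the genome without protein-coding genes, and the open chromatin found in them in CD4 T cells is described here. Merging every overlap of 1 bp or more among the peaks of the 12 deposited ATAC-seq lists gave 76882 regions, of which 75128 lay on autosomes. A region was kept when its midpoint lay outside every protein-coding gene body of the RefSeq annotation and more than 50 kb from the nearest end of such a gene. This left 7525 desert regions, 10.0% of the autosomal ones. Their median distance to a gene end was 107 kb (quartiles 70.7 and 186 kb), and their median width was 386 bp.

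ATAC-seq marks DNA that the transposase Tn5 can reach, such as active promoters and enhancers. CD4 T cells with the 6.5TCR, a receptor for influenza hemagglutinin (HA), were moved into Aire-HA hosts, and T cells of the bone marrow were sorted after 14 days. All libraries were labelled Balb/c, and each of the 6 groups had 2 libraries. Donor cells (CD45.1-CD45.2+CD3+CD4+) were sorted as CD25- cells that had not become regulatory (donor Tconv) and as CD25+LAP+ cells that had (donor Treg). LAP is the latency peptide of TGF-beta. Host conventional cells (host Tconv) were CD45.1+CD45.2-CD3+CD4+CD25-, labelled WT in the title and Aire-HCO in the library name. Host regulatory cells were sorted as CD25+CTLA4+ among CD3+CD4+ cells with both CD45.1 and CD45.2, and split by Nrp1 into host pTreg (Nrp1-) and host tTreg (Nrp1+). The last group was induced in vitro from WT Balb/c cells and sorted as CD3+CD4+CD25+LAP+ (iTreg). The labels do not say what HCO stands for or whether replicates are separate animals. The p-values therefore measure only the spread between these libraries, which may be technical. Permutation tests of desert shares and Fisher's exact tests treat the 2 libraries of a group as separate units and pool groups. Differences between groups thus enter that spread, and no test of these 2 kinds used the group as its unit.

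Enhancers can act over long distances, and large deserts beside genes for transcription factors often hold many of them. Deserts also hold long noncoding RNA (lncRNA) genes, microRNA genes and the variable gene segments of the antigen receptor loci, which RefSeq does not class as protein-coding. Naive T cells depend on factors such as Satb1, Foxo1, Bach2 and Lef1, and regulatory T cells on Foxp3 with partners such as Runx1.

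At 190 desert regions the open chromatin overlapped, by 1 bp or more, a promoter window of 1 of 192 noncoding genes, the window running from 250 bases before to 50 after the annotated start (RefSeq, GRCm38.p6). Such regions were carried by all 12 libraries in 34.7% of cases, against 14.8% of the other desert regions. Windows of 5 lncRNA genes, each overlapped over its whole length, are shown because the results below turn on them. Lncpint holds 9 desert regions shared by all libraries, the most of any lncRNA gene counted. Morrbid holds 6, as do Gm41414, Gm31718 and Gm31813. Gm19585 and Gm20750 start in the deserts beside Satb1 and Foxo1, and the region over the Ifngas1 window was not in the lists of all groups. Capitals mark matches, on either strand, to 4 short motifs: TGTGGT (RUNX factors), CCGGAAG (ETS factors), TGANTCA (AP-1) and CTTTGAT (TCF and LEF factors). None of these letters overlapped between the matches shown.
Lncpint, chr6:31218425-31218724, minus strand: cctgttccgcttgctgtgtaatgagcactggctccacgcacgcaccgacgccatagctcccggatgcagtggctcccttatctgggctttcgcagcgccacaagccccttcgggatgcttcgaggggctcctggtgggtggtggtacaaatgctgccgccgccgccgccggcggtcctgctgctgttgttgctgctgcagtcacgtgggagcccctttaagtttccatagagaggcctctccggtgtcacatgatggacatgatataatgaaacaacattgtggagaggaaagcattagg
Morrbid, chr2:128429302-128429601, minus strand: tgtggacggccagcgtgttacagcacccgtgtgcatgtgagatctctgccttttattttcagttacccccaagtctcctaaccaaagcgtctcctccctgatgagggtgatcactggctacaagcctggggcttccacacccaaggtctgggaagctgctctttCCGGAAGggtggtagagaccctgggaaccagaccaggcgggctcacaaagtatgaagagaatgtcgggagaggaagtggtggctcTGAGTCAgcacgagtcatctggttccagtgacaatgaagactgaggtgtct
Gm19585, chr17:52149039-52149338, plus strand: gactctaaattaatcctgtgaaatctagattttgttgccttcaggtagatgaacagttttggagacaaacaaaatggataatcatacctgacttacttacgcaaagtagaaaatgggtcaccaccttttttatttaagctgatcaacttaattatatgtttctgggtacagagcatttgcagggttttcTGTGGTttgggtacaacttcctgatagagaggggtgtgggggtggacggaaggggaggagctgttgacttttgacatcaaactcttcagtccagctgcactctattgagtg
Gm20750, chr3:52927617-52927916, minus strand: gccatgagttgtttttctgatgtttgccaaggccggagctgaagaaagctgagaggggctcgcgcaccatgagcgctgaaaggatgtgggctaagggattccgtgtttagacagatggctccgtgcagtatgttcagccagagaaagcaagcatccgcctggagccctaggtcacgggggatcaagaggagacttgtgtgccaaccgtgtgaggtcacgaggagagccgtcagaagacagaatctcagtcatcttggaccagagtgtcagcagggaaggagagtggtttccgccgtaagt
Ifngas1, chr10:118556476-118556775, minus strand: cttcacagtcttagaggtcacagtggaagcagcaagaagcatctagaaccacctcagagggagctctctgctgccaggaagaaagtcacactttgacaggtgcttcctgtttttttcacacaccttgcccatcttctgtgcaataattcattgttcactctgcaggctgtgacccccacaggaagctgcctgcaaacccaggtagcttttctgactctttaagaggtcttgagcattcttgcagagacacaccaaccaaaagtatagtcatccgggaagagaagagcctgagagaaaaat

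The Morrbid window held 1 ETS and 1 AP-1 match and the Gm19585 window 1 RUNX match, and the other windows shown held none of the 4 motifs. Among 222 windows overlapped by a desert region, 28.4% held the RUNX letters, against 16.8% of all 32851 windows in the table. The AP-1 letters were in 14.0% against 7.81%, the TCF letters in 7.21% against 3.73% and the ETS letters in 6.31% against 8.86%. These shares describe letters only. The 222 windows are of noncoding genes and were picked by an overlapping region, while the full set was filtered by neither. Several windows of 1 gene each count, and no comparison matched for these points was made. The median GC content was 50.7% in the overlapped windows and 52.7% in all. The merged regions over the Lncpint, Morrbid, Gm19585 and Gm20750 windows were carried by all 12 libraries. A library carries a region through a peak anywhere in it, and peaks at the window itself were not counted. The region over the Ifngas1 window, beside the gene of the cytokine interferon-gamma, was in both lists of donor Tconv, donor Treg and host Tconv. It was also in the list of host pTreg replicate 1. It was in neither iTreg list and neither host tTreg list.

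Of 11 microRNA genes with a desert region in the gene or within 1 kb, 3 had one carried by all 12 libraries. Mir17 and Mir18 open the miR-17-92 cluster, which promotes lymphocyte growth and survival, and lie between Slitrk5 and Gpc5 on chromosome 14. The region chr14:115039692-115042967, 3276 bp wide, ended 704 bp before the Mir17 hairpin. The remaining gene, Gm51276, encodes miR-12196 and lay 624 bp from its region. The mature forms are shown with the seed, bases 2 to 8, in capitals.
miR-17-5p: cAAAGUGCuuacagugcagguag
miR-17-3p: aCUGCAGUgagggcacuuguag
miR-18a-5p: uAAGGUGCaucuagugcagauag
miR-18a-3p: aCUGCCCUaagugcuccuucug
miR-12196-3p: uCACAGGUgagcuagaaaguau

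No seed was shared among these 5. Mir30a and Mir9-2, with 2 and 3 regions, had regions carried by a mean of 2 and 1.67 libraries.

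The lists held 496365 peaks in all, from 28394 in host tTreg replicate 1 to 63207 in iTreg replicate 2, and the read depth behind them is unknown, so a missing peak does not show closed chromatin. The identity of the cells was checked on peaks at marker genes. All 16 markers of the T cell and CD4 lineage had a peak in every library, as did 18 of 19 core regulatory T cell genes. As these include the conventional libraries, such peaks do not tell regulatory from conventional cells. Peaks at B and plasma cell genes numbered 8 to 25 a library, at myeloid genes 5 to 14, at erythroid and megakaryocyte genes 9 to 14, at CD8 T and NK genes 3 to 11 and at stem and progenitor genes 10 to 43. A peak in every library was found at 5 of 12 B and plasma cell genes, 4 of 14 myeloid genes, among them Spi1, 6 of 12 erythroid and megakaryocyte genes, among them Gata1, 5 of 12 stem and progenitor genes and 2 of 10 CD8 T and NK genes. The part of other cells in the results was not tested. No peak in any library was found at 7 of 14 myeloid genes, among them Csf1r, S100a8 and Elane. The same held for 3 of 12 erythroid and megakaryocyte genes, among them Hba-a1. It held for 1 of 10 CD8 T and NK genes, Ncr1, for 1 of 12 B and plasma cell genes and for 0 of 12 stem and progenitor genes. Library names carry the code BW13 for the donor and host Tconv libraries, DR31 for the host pTreg and tTreg libraries and none for iTreg. They also carry a number up to 17000 in the in vivo regulatory libraries and from 42000 to 50000 in the others. Group and code, or group and number, therefore cannot be told apart across these lines.

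The share of a library's regions that lay in deserts was highest in iTreg with the lists as deposited, but not with lists of equal length. It was 9.12% and 9.36% in the 2 iTreg libraries, 8.80% and 8.45% in donor Tconv, 7.53% and 7.71% in donor Treg, 7.05% and 7.87% in host Tconv, 7.60% and 7.23% in host pTreg, and 6.77% and 7.51% in host tTreg. Both iTreg libraries lay above all 10 others, and both donor Tconv libraries above the remaining 8. Among those 8, both donor Treg libraries lay above both host tTreg libraries, and the other pairs of groups overlapped. In numbers, 5131 and 5735 desert regions were carried by the iTreg libraries and 1783 to 3989 by the rest.

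iTreg exceeded the 10 other libraries by 1.59 percentage points (two-sided exact permutation test over 66 arrangements, p = 0.0152, the smallest it can give, adjusted over 6 tests 0.0455). The iTreg lists were also the longest. With every list cut to its 28394 widest peaks, the difference was -0.20 points (exact permutation p = 0.348). This cut changes list length and peak width together, and the part of each was not tested. The shares then ran from 6.23% in host Tconv replicate 1 to 7.11% in donor Treg replicate 1, with both iTreg libraries at 6.62% and 6.61%. Regulatory libraries as a whole did not differ detectably from conventional ones (7.85% in 8 libraries, 8.04% in 4, exact permutation p = 0.721). The 6 in vivo regulatory libraries had 7.39%, 0.65 points below the conventional ones (exact permutation p = 0.105, within code BW13 alone -0.42 points and p = 0.467). With equal lists this difference was 0.17 points in the other direction.

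**Figure D1:**
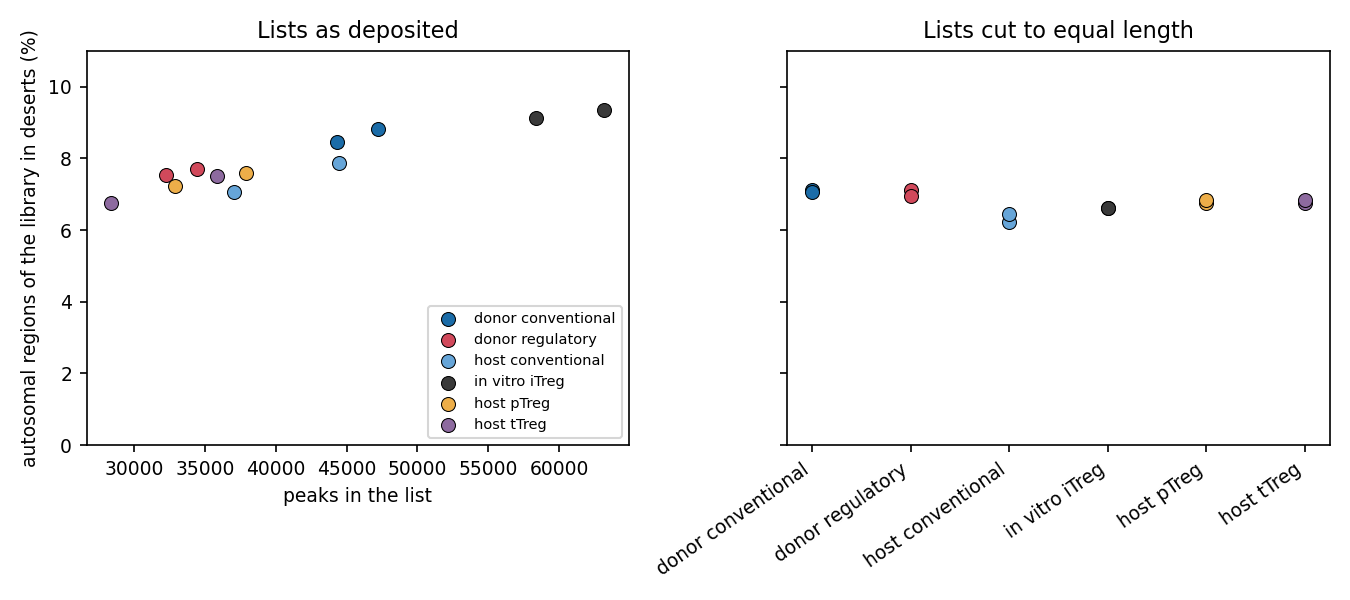
Percent of each library's autosomal regions that lie in deserts (vertical axis), against the number of peaks in the deposited list (left) and by group after all lists were cut to equal length (right). Each point is 1 library. At left the iTreg libraries are highest at 9.12% and 9.36%, and at right all 12 lie between 6.23% and 7.11%.

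Desert regions were shared by fewer libraries than regions closer to genes. Of the 7525, 1152 (15.3%) were carried by all 12 libraries, against 19.6% of the 11202 intergenic regions 10 to 50 kb from a gene end and 29.2% of all other autosomal regions. Regions carried by a single library made up 18.4%, 16.4% and 14.4% of these classes. A desert region of a given library was found in 6.95 of the 10 libraries of other groups on average, against 7.36 for an intergenic region at 10 to 50 kb. The desert value was lower in 12 of 12 libraries (two-sided exact sign-flip permutation test, p = 0.000488, the smallest possible, adjusted 0.00293). The 12 values rest on the same regions and on one another's lists. They are not independent, so this p overstates the evidence. With lists of equal length the difference was -0.36 libraries, and with any 1 library left out the adjusted p was 0.00586.

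The overlap between the 2 libraries of a group was compared in the same way. The Jaccard index (regions in both lists divided by regions in either) averaged 0.747 in deserts and 0.766 at 10 to 50 kb. It was lower in deserts in 6 of 6 groups, with an exact sign-flip permutation p of 0.0312 and an adjusted p of 0.0625, which missed the threshold. With lists of equal length the difference was -0.0010 (exact sign-flip permutation p = 0.781), against -0.019 as deposited. In deserts donor Tconv had the highest index with 0.804, followed by donor Treg (0.794), iTreg (0.788), host pTreg (0.739), host Tconv (0.697) and host tTreg (0.661). Median peak width was 369 bp in both classes, averaged over libraries (exact sign-flip permutation p = 1).

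Sharing fell with distance from genes, also among the desert regions. All 12 libraries carried 16.6% of the regions 50 to 100 kb from a gene (95% exact binomial interval 15.4 to 17.9), 15.2% at 100 to 250 kb, 12.6% at 250 to 500 kb and 8.77% beyond 500 kb (5.76 to 12.7, 285 regions). These intervals cover counting error only, and the regions of a library are not replicates. Just inside the 50 kb limit, at 50 to 60 kb, the share was 16.8%, and just outside, at 40 to 50 kb, it was 18.5%. The most distant region, chr1:101901718-101903161 between Cntnap5b and Cdh20, lay 1412 kb from a gene and was in every list but that of donor Treg replicate 1. Of the next 4, which lay 1271 to 1324 kb away, 1 was between Otol1 and Sis, in 11 libraries, and 3 were between Kcnt2 and Cdc73, in 6, 12 and 12 libraries.

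**Figure D2:**
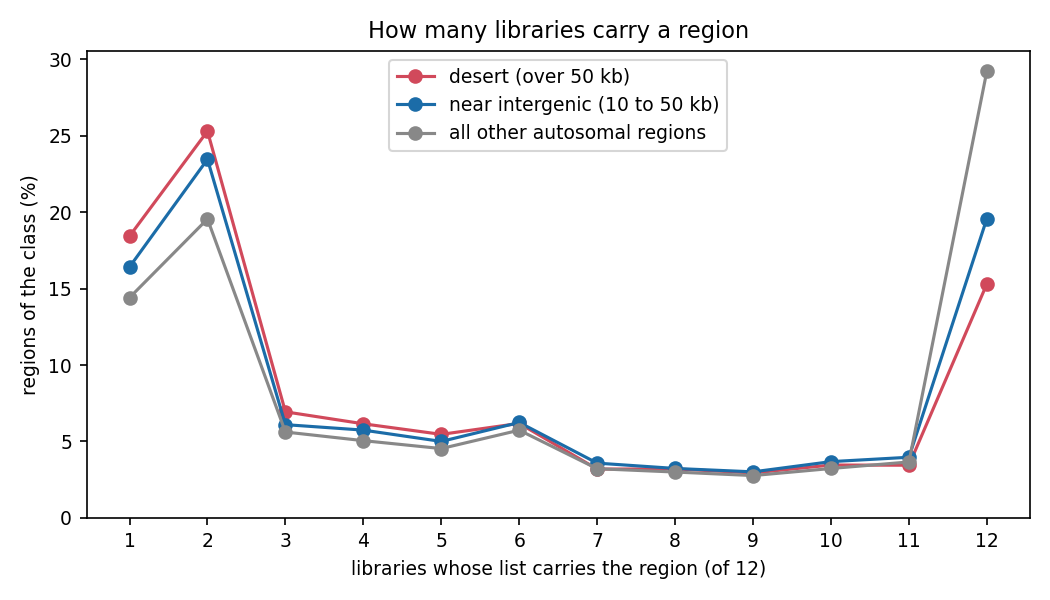
Percent of regions (vertical axis) by the number of libraries that carry them (horizontal axis), for desert regions, intergenic regions 10 to 50 kb from a gene end, and all other autosomal regions. All 3 classes peak at 2 and at 12 libraries, and at 12 the desert class is lowest with 15.3%.

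The commonest pattern in deserts was a region in both iTreg libraries and no other, with 1537 regions. That was 20.4% of the desert regions, against 16.6% of all autosomal regions. At 10 to 50 kb from a gene end this pattern made up 20.1%, near the desert value, and beyond 500 kb 17.5%. The next pattern in deserts was that of the 1152 regions of all libraries. Regions in both libraries of donor Tconv alone numbered 102, and these made up 24.9% of the 409 autosomal regions with that pattern. For the other groups alone the desert counts were 8 of 48 autosomal regions in donor Treg (16.7%) and 6 of 111 in host Tconv (5.41%). They were 13 of 113 in host pTreg (11.5%) and 2 of 24 in host tTreg (8.33%). Of all autosomal regions, 10.0% lay in deserts. Regions of donor Tconv, host Tconv and iTreg, absent from all 6 in vivo regulatory libraries, numbered 268 (3.56% of desert regions, 3.24% of autosomal ones).

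Regulatory and conventional libraries were compared region by region with a two-sided Fisher's exact test of 8 against 4 libraries, adjusted by Benjamini-Hochberg over the 18887 regions of the genome that could reach an unadjusted p under 0.05. Among 2098 desert regions tested, 31 (1.48%) were called as carried in regulatory libraries, against a background of 1.39% of all regions tested. In the other direction 111 (5.29%) were called, against 4.98%. Both shares were near the background. Each called region was in all libraries of one kind and none of the other (p = 0.00202, adjusted 0.0317 by Fisher's exact test). Leaving out either donor Tconv, donor Treg, host pTreg or host tTreg library, or host Tconv replicate 2, gave 0 calls in both directions by this test, with 56 to 88 regulatory and 178 to 320 conventional desert regions at an unadjusted p under 0.05 (74 and 303 with all libraries). Leaving out host Tconv replicate 1 gave 32 and 218 calls, and leaving out either iTreg library gave 31 to 35 and 126 to 145.

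The desert between Satb1, a chromatin organizer of T cells, and Kcnh8, a potassium channel gene, held the most such calls. Of its 62 regions (chr17:51833290-52602709 between the genes), 11 were called as conventional and 1 as regulatory. The 11 lay 66.4 to 693 kb from Satb1, such as chr17:51899274-51900098 and chr17:52311853-52312529, and 10 of them lay 270 kb or more from Satb1. The single regulatory one, chr17:52076727-52077257, lay 244 kb from Satb1.

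In this gap the donor Tconv libraries carried 46 and 43 regions and the host Tconv libraries 35 and 50. The iTreg libraries carried 24 and 30, donor Treg 17 and 19, host pTreg 13 and 10 and host tTreg 9 and 12. All 4 conventional libraries lay above all 8 regulatory ones, including the iTreg libraries with their longer lists. The 11 regions called as conventional are in these counts, and by definition were in all 4 and in none of the 8. This separation and the difference in points below are therefore not independent of the calls. Conventional libraries carried 48.7 percentage points more of the gap's regions than in vivo regulatory ones, and with equal lists 49.5 points more. Of the 7 regions here in all 12 libraries, 1 covered the Gm19585 promoter window printed above.

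**Figure D3:**
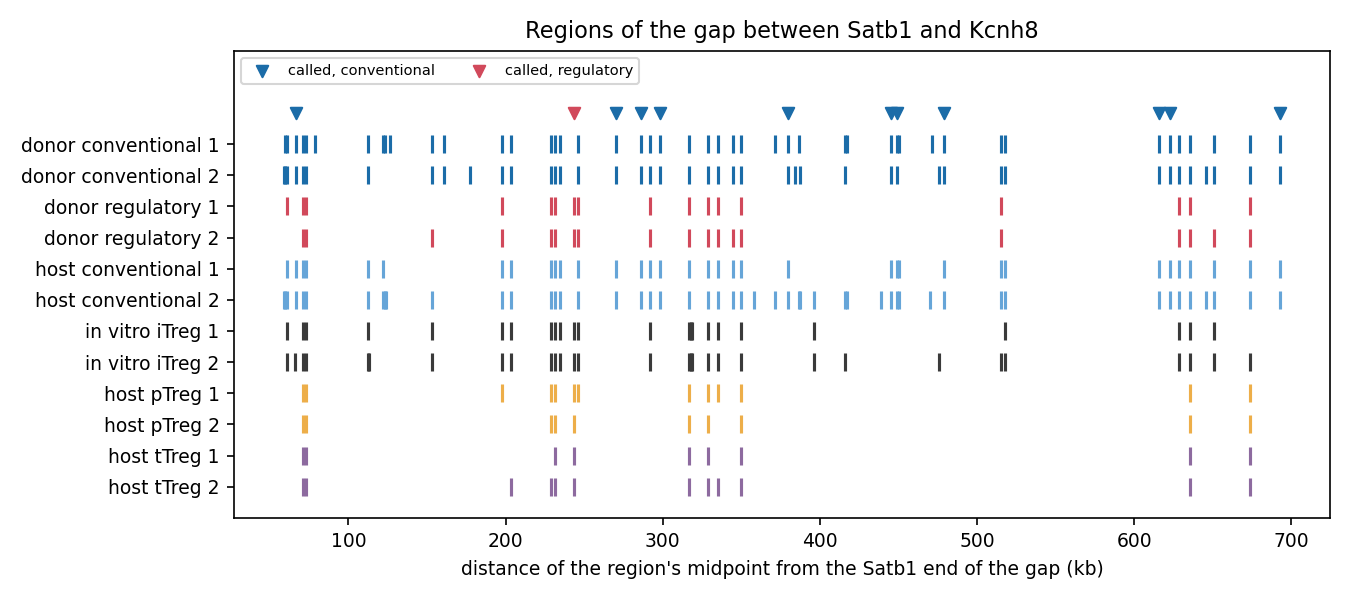
Each tick is a desert region carried by a library (rows), placed by the distance of its midpoint from Satb1 in kb. Triangles above mark the 11 regions called in conventional libraries and the 1 called in regulatory libraries, and the 4 conventional rows hold more ticks (35 to 50) than any other row (9 to 30).

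Further deserts with conventional calls were the T cell receptor alpha and delta locus between Gm36448 and Dad1, with 5, and 6 gaps with 3 each. Those lie beside Bcl11b and Ets1, which encode T lineage factors, Tox, a factor of T cell development and exhaustion, Dusp4, a MAP kinase phosphatase, Dyrk2, a kinase, and Trps1, a zinc finger repressor. On their other sides lie Gm52008, Kirrel3, Car8, Saraf, Cand1 and Csmd3. The 3 calls beside Dusp4 lay 452 to 526 kb from it and 111 to 185 kb from Saraf. Those beside Bcl11b lay 131 to 701 kb from it. Which gene, if any, a called region acts on was not tested. Regulatory calls were scattered over 30 gaps, and the gap from Ptger4, a prostaglandin E2 receptor, to Dab2, an endocytic adaptor, was the one with 2. They lay at chr15:5607395-5608210 and chr15:5891114-5891585. Other gaps with 1 regulatory call lie beside Runx3, a RUNX factor, Tet2, a DNA demethylase, and Dock10, a guanine nucleotide exchange factor.

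The 7 pairs of groups were then compared by counting regions in both libraries of one group and neither of the other. With 2 libraries against 2 no test per region can pass, so the counts are a description, and the pairs share libraries. Percentages refer to desert regions carried by at least 1 of the 4 libraries, and the background is the same percentage over all regions. With equal lists only the desert percentage was computed. Whether a shift under equal lists is particular to deserts was therefore not tested.

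Donor Treg against donor Tconv gave 172 desert regions in donor Treg (3.79%, background 2.41%) and 1204 in donor Tconv (26.5%, background 19.9%). In the first direction the Ptger4 to Dab2 and Adgrl2 to Adgrl4 gaps each had 4 regions against 0, and the gap from Spef2 to Prlr, the prolactin receptor, 3 against 0. In the second the T cell receptor alpha and delta locus had 41 against 0, the gap from Id2, an inhibitor of E proteins, to Rnf144a 25 against 0, and Enc1 to Arhgef28 20 against 0. The donor Tconv lists were longer. With equal lists the percentages were 12.2 and 14.5.

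Donor Tconv against host Tconv gave 405 regions in the donor cells (9.23%, background 4.4%) and 19 in the host cells (0.433%, background 0.557%), and with equal lists 6.42% and 1.56%. The donor share in deserts was above that at 10 to 50 kb from genes (6.24%). The T cell receptor alpha and delta locus had 16 against 1, the immunoglobulin heavy chain variable segments between Adam6a and Zfp386 10 against 0, and Id2 to Rnf144a 8 against 0. Donor Treg against host Tconv gave 302 (7.59%, background 4.18%) and 607 (15.3%, background 12.8%), with 5.46% and 14.2% at 10 to 50 kb from genes. Here Ptger4 to Dab2 had 9 against 0, Ubl3 to Katnal1 9 against 1 and Jun to Fggy 5 against 0, Jun being an AP-1 subunit. In host Tconv the same receptor locus had 18 against 0, Satb1 to Kcnh8 17 against 1 and Enc1 to Arhgef28 14 against 1. With equal lists the order turned, to 15.7% in donor Treg and 10.4% in host Tconv.

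Host pTreg against host tTreg gave 143 regions with Nrp1-negative cells (4.56%, background 3.35%) and 23 with Nrp1-positive ones (0.733%, background 0.452%). With equal lists these were 3.22% and 2.28%. The immunoglobulin heavy chain segments had 9 against 0, Id2 to Rnf144a 7 against 0 and Gm30733 to Prex1 3 against 0. In the host tTreg direction Ptprn2 to Rapgef5, Irf2bp2 to Tomm20 and Celf2 to Gata3, the last named a Th2 and regulatory T cell factor, had 2 against 0 each.

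Donor Treg against host pTreg gave 136 (4.23%, background 2.09%) and 174 (5.42%, background 4.33%). With equal lists the order turned, to 6.15% and 4.82%. Beside donor Treg stood Saraf to Dusp4 and Prl5a1 to Sox4 with 4 against 0 and Pdgfra to Kit with 3 against 0. Beside host pTreg stood the heavy chain segments with 8 against 0, Id2 to Rnf144a with 5 and Sall3 to Galr1 with 4. Donor Treg against host tTreg gave 195 (6.36%, background 3.53%) and 44 (1.43%, background 1.4%), and with equal lists 5.74% and 3.10%. Prl5a1 to Sox4, a factor of lymphocyte development, had 6 against 0, Stt3b to Gadl1 and Satb1 to Kcnh8 5 against 0, and Samsn1 to Nrip1 had 2 for host tTreg. These pairs cross the codes BW13 and DR31 and cannot be told apart from them.

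Donor Treg against iTreg, regulatory cells converted in the animal against those induced in vitro, gave 266 (4.08%, background 2.92%) and 2663 (40.9%, background 34.7%). At 10 to 50 kb from genes the iTreg percentage was 40.5. Rps24 to Zmiz1, a coactivator of the PIAS family, had 32 regions in iTreg and 0 in donor Treg, Runx1 to Setd4 30 and 0, and Cd83 to Jarid2 27 and 1. In donor Treg the gaps Ccer1 to Atp2b1 (4 against 0), Ubl3 to Katnal1 (8 against 4) and Ptprn2 to Rapgef5 (3 against 0) led. With equal lists the percentages were 20.5 in donor Treg and 18.7 in iTreg, so the order turned.

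**Figure D4:**
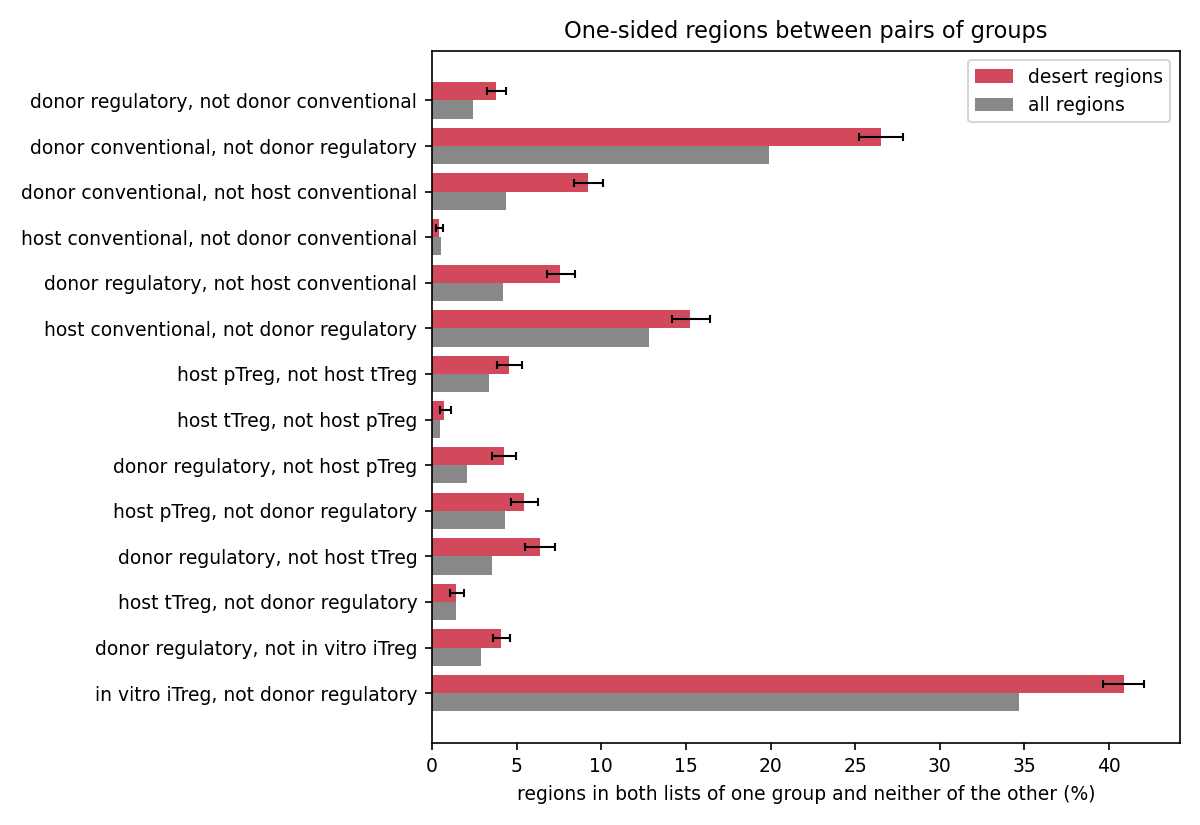
Percent of regions carried by both libraries of the first-named group and neither of the second (horizontal axis), for desert regions (red) and all regions (grey) in 7 pairs of groups. Error bars are 95% exact binomial intervals and cover counting error only. The longest bars are iTreg against donor Treg with 40.9% and donor Tconv against donor Treg with 26.5%.

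Desert regions were spread unevenly over the gaps between genes. Of 2495 gaps of more than 100 kb, 1300 (52.1%) held no desert region. Gaps above 1000 kb made up 51.9% of the length that could hold one and had 17.6% of the regions. The longest gap, from Pcdh20 to Pcdh9, 2 protocadherin genes of neurons, spanned 4542 kb and held none. Those 444 gaps with 5 or more regions held 6006 of the 7525 (79.8%). Among gaps with 20 or more regions, density was highest between Pmepa1, an inhibitor of TGF-beta signalling, and 1700021F07Rik with 16.5 regions per 100 kb, then beside the ETS factor gene Ets2 with 15.1 and beside Zfp36l2, an RNA-binding protein, with 14.5. Gaps with fewer regions could be denser, such as Sv2b to Akap13 with 11 regions and 23.8 per 100 kb, which was named after its value was seen. The value over all gaps above 100 kb was 0.869.

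The 10 fullest gaps held 648 regions and included antigen receptor loci and the neighbourhoods of growth and quiescence factors. They were Gm36448 to Dad1 (79 regions, T cell receptor alpha and delta), Myc to Gsdmc (76), Adam6a to Zfp386 (70, immunoglobulin heavy chain), Id2 to Rnf144a (69), Foxo1 to Cog6 (63), Satb1 to Kcnh8 (62), Eea1 to Btg1 (61), Gadd45g to Diras2 (57), Runx1 to Setd4 (56) and Cd83 to Jarid2 (55). Myc drives growth, Foxo1 and Btg1 maintain quiescence, and Gadd45g answers stress and stimulation. Regions in all 12 libraries numbered 22 in the Foxo1 gap, 18 in the Btg1 gap and 14 in the Id2 gap, but 2 each in the Runx1 gap and the T cell receptor alpha and delta locus.

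The Runx1 to Setd4 gap (chr16:92826074-93583457) separated the regulatory cells of the bone marrow from all other libraries. The iTreg libraries carried 43 and 48 of its 56 regions and the donor Tconv libraries 36 and 31. The host Tconv libraries carried 19 and 31, donor Treg 8 and 10, host pTreg 8 and 5 and host tTreg 3 and 8. All 6 in vivo regulatory libraries lay below all 6 others. Conventional libraries carried 39.7 points more of this gap's regions than in vivo regulatory ones, and 44.2 points more with equal lists.

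The T cell receptor alpha and delta locus was carried mostly by donor Tconv, with 65 and 55 of 79 regions. The host Tconv libraries carried 32 and 41, iTreg 31 and 37, and the 6 in vivo regulatory libraries 7 to 18. The donor Tconv libraries were above all 10 others. With equal lists 28 regions were left, and donor Tconv carried 18 and 16 of them, host Tconv 12 and 12, the in vivo regulatory libraries 4 to 10 and iTreg 2 and 3. Antigen receptor segments lay within 50 kb of 191 desert regions in 7 gaps, 20 of them in all 12 libraries. The T cell receptor beta locus had 20, gamma 9, and the light chain loci kappa and lambda 5 and 1.

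In some other full gaps the contrast did not outlast equal lists, and in others part of it did. The Myc to Gsdmc gap had 3.62 points more of its regions in conventional than in in vivo regulatory libraries as deposited and -20.4 points with equal lists. The value went from 15.3 to -6.44 points in the Foxo1 gap and from 18.2 to -0.72 in the heavy chain segments. It went from 23.3 to 0.60 in the Cd83 gap and from 16.1 to 1.81 in the Gadd45g gap. The Id2 gap kept 18.8 of 27.3 points and the Btg1 gap 8.97 of 15.4. Those equal-length values for gaps were added after the data were seen. Over all desert regions as deposited, the conventional libraries carried 32.7% to 53.0% and the in vivo regulatory ones 23.7% to 36.2%. With equal lists they carried 1671 to 1948 and 1783 to 1916 desert regions. A conventional excess as deposited is therefore not by itself particular to a gap.

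**Figure D5:**
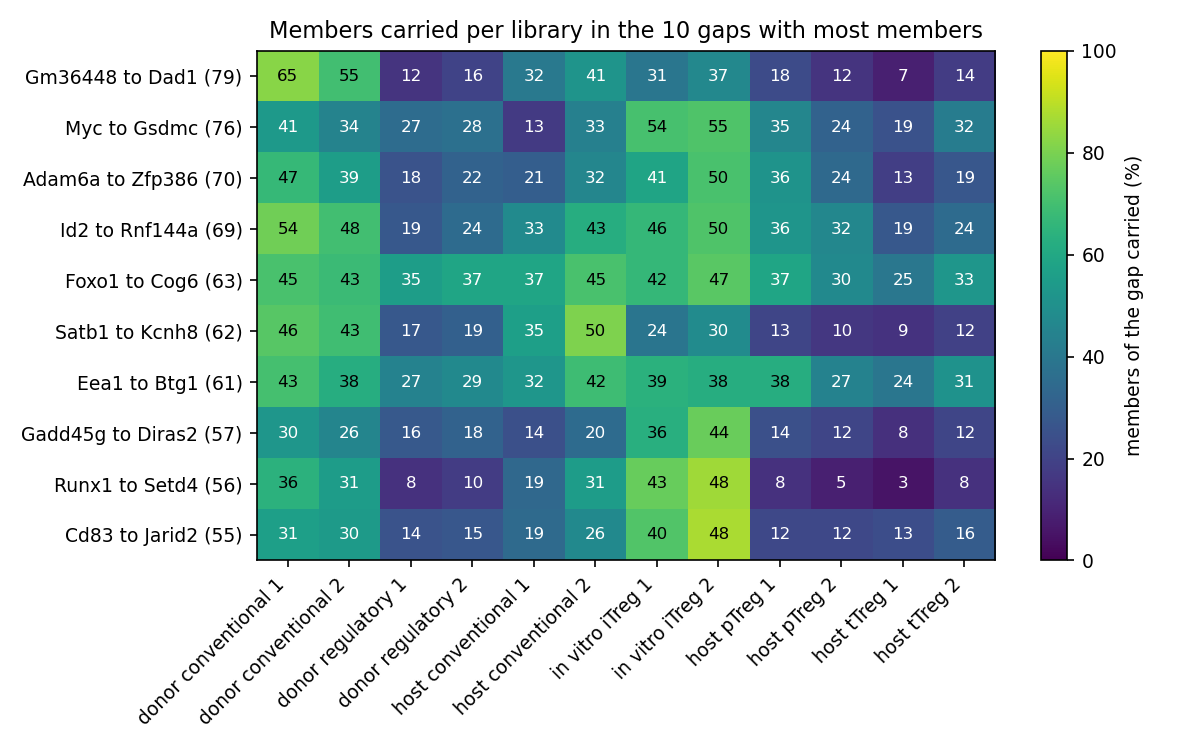
Number of desert regions carried by each library (columns) in the 10 gaps with most regions (rows, total in brackets), with colour for the percent of the gap's regions. The Satb1 row is high in the 4 conventional columns, and the Runx1 row is high in iTreg (43 and 48) and low in the 6 in vivo regulatory columns (3 to 10).

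Within gaps the regions formed clusters. With neighbours at most 10 kb apart and at least 3 members, 760 clusters held 3394 of the desert regions (45.1%), with a median of 4 members over 12.8 kb. Clustered regions were carried by 5.79 libraries on average and the others by 4.52, and all 12 libraries carried 19.7% and 11.7% of them. At least 1 region of all libraries was present in 391 clusters (51.4%).

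The largest cluster, chr13:52003300-52115309, had 27 regions over 112 kb between Gadd45g and Diras2. Its donor Tconv libraries carried 17 and 16, donor Treg 12 and 13, host Tconv 10 and 11, iTreg 12 and 18, host pTreg 10 and 8 and host tTreg 6 and 9. Both donor Tconv libraries lay above those of donor Treg and the 3 host groups, with 1 iTreg library on either side of them. The next, chr6:31114200-31222022, had 20 regions along the lncRNA gene Lncpint, between Klf14 and Mkln1, and 9 of them were in all 12 libraries. Here host tTreg with 15 and 16 regions carried more than donor Tconv with 13 and 11, although its lists were shorter. The widest desert region, 7346 bp at chr6:31212115-31219460, covered the Lncpint promoter window printed above.

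Clusters of 15 regions were found in 3 places. One lay beside Rasgrp1, an activator of Ras downstream of the T cell receptor (chr2:117399388-117461983), with 13 regions in each iTreg library and 8 to 11 in the others. Another lay within Morrbid, beside Bcl2l11, which encodes the death-promoting protein Bim (chr2:128364121-128430272), with 7 to 12 in every library. The third lay between Eef2kmt and Rbfox1 along the lncRNA gene Gm41414 (chr16:5363182-5415640), with 12 and 12 in iTreg and 2 to 5 in the others.

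Flanking genes were counted over lists of T cell and other genes. A gene flanked a desert with at least 1 region in 12 of 20 genes of naive and quiescent T cells and 18 of 38 of activation and effector function (47.4%). It was 6 of 16 for effector and tissue regulatory cells (37.5%) and 6 of 18 core regulatory T cell genes (33.3%). It was 7 of 12 for stem and progenitor genes (58.3%), 13 of 30 for neural and developmental genes (43.3%), 5 of 14 for TGF-beta genes (35.7%) and 4 of 15 for homing genes (26.7%). Over all autosomal protein-coding genes it was 2167 of 20661 (10.5%). For pan-T genes it was 3 of 16, for B and plasma cell genes 2 of 12, for myeloid genes 2 of 14, and 1 each of 10 CD8 T and NK and 11 erythroid and megakaryocyte genes. The lists were written with earlier results of these data known, and the length of the gaps beside each gene was not taken into account.

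Naive and quiescence genes flanked 447 desert regions, with a median of 34 regions per gene against 3 over all genes. All 12 libraries carried 24.8% of them, against 15.3% of all desert regions. Higher shares on fewer regions were found for TGF-beta genes (27.3% of 33), B and plasma cell genes (30% of 10) and myeloid genes (31.25% of 16). Lower ones were found for activation and effector genes (13.8% of 385), stem and progenitor genes (8.16% of 49) and neural and developmental genes (6.06% of 99). Wide sharing was thus not particular to the naive list. Among the naive and quiescence genes, Btg1 had 80 regions on both sides together, Satb1 74, Foxo1 68, Bcl11b 52, Tox 52, Lef1 38 and Ets1 30. Of 132 tested, 24 were called as conventional and 2 as regulatory, against 111 and 31 of 2098 over all desert regions. Satb1 supplied 11 of the 24, Bcl11b, Ets1 and Tox 3 each and Btg1 and Lef1 2 each. Lef1, a TCF family factor, had 29 and 27 of the 38 regions of its gap from Rpl34 in donor Tconv, 21 and 28 in host Tconv, 22 and 27 in iTreg, while each in vivo regulatory library carried 14 to 17.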

How the data were processed

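ATAC-seq was measured in 12 libraries of mouse CD4 T cells, 6 groups of 2, with a BED file of peaks for each. The tools named in the submitters' processing notes are bedtools, HOMER 4.10 and Bowtie2 2.3.3, with build mm10. What each did, its settings and any read shift for the transposase were not stated in those notes, and the names of the lists speak of an intersection. All peaks carry a score of 1000 in the deposited files, which was not used. The other values used are the peak coordinates deposited by the authors. Read depth is unknown.

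Peaks sharing 1 bp were merged with Python 3.11.15, pandas 2.3.3 and numpy 2.4.6. Distance means that from a region's midpoint to the closest end among 20661 autosomal protein-coding genes in RefSeq GRCm38.p6, whose coordinates are those of mm10. Promoter and microRNA sequences are RefSeq's; no genome was used, so no sequence of the peaks is shown. Exact permutation, sign-flip and Fisher's exact tests used scipy 1.17.1 and statsmodels 0.14.6, with Benjamini-Hochberg adjustment at 0.05; the Fisher step was tested on simulated data. Counts for pairs of groups carry no test. A desert, called a gap, is named by the gene on each side. Named are the 10 gaps with most regions, 5 clusters with most members, up to 3 gaps per direction of each pair (net count of 2 or more), up to 10 gaps per direction with most called regions, the most distant regions, gaps beside listed genes, and up to 10 noncoding genes; windows for printing and the gaps given at equal length were chosen after values were seen. Groups follow the sample titles. The members, gene lists and tests were chosen with earlier results of these data known. Alternatives changed the distance limit, the genes counted, list length, coverage of a region, cluster spacing, run code, replicate block and each library.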

Additional observations from a re-analysis of the deposited data

How the results depend on the processing

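Sharing with other groups was lower in deserts, past the threshold, under every alternative run (difference -0.30 to -0.56 libraries). The library values tested there are not independent of one another. Peak lists give no depth, so a missing peak cannot be told from a shallow library. Several results changed with the cut to equal lists, which alters list length and peak width together. With equal list lengths the share differences were -0.20 points for iTreg, 0.10 for all regulatory and 0.17 for in vivo regulatory libraries, and there were 320 clusters. The pair percentages were then 12.2 (donor Treg) and 14.5 (donor Tconv), 1.56 (host Tconv against donor Tconv), 15.7 (donor Treg against host Tconv), 2.28 (host tTreg against host pTreg), 3.10 (host tTreg against donor Treg), and 20.5 (donor Treg) and 18.7 (iTreg). The conventional minus in vivo regulatory values were -20.4 points in the Myc gap, -0.72 in the heavy chain segments and -6.44 in the Foxo1 gap. The cause was not tested.

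At 25 kb, 168 conventional calls and 1247 clusters were found. At 100 kb, 18 regulatory calls, 395 clusters, a width difference of -6.29 bp and a Jaccard difference of -0.026 (adjusted p = 0.0469, exact sign-flip permutation) were found. These counts follow the number of regions, 12108 and 4050. With noncoding genes and receptor segments as genes, 2006 regions, 6 regulatory and 31 conventional calls and 161 clusters were left, the regulatory share difference was 0.0050 points, the width difference -10.3 bp and the host Tconv percentage against donor Tconv 0.0906. With at least 0.5 of a region covered, that percentage was 0.656. Against all other regions over 1 kb from a gene end the width difference was -22.7 bp and the Jaccard difference -0.022. A 5 kb cluster spacing gave 464 clusters.

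Under the replicate block, with labels exchanged only within equal replicate numbers, the iTreg difference was 1.59 points with an exact permutation p of 0.0278 and an adjusted p of 0.0625. The block changed no other call. Equal numbers did not deviate together: over 15 pairs of groups the correlation of replicate differences across desert regions ran from -0.10 to 0.076, and the labels tie numbers to nothing shared.

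With 1 library left out, the iTreg difference was 1.47 to 1.71 points, and its adjusted p rose above 0.05 in 11 of 12 cases, since fewer arrangements exist. The regulatory difference was -0.52 to 0.061 and the in vivo one -0.99 to -0.40 points, past the threshold without host Tconv replicate 1 (adjusted p = 0.0357, exact permutation). The width difference was -0.82 to 1.73 bp. Fisher's exact test called 0 to 35 regulatory and 0 to 218 conventional regions (55 to 115 and 178 to 599 at an unadjusted p under 0.05). Among the pair percentages, donor Treg against donor Tconv gave 4.63 to 6.49 and 28.6 to 38.8, donor Tconv against host Tconv 9.92 to 24.3 and 0.823 to 3.87, and donor Treg against host Tconv 8.07 to 15.6 and 16.7 to 31.9. Donor Treg against host pTreg gave 5.27 to 11.1 and 7.13 to 14.9, against host tTreg 7.41 to 18.7 and 2.22 to 12.1, and against iTreg 4.64 to 5.90 and 42.8 to 56.8. Host pTreg against host tTreg gave 5.38 to 15.9 and 1.20 to 8.81. A group left with 1 library meets the condition of both libraries, or of neither, more easily, which raises these values by construction.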

Other observations

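The X chromosome is not among the regions above. By the same distance rule, 216 of its 1739 regions (12.4%) lay in deserts, and 37 of these (17.1%) were in all 12 libraries. The libraries carried from 46 (host tTreg replicate 1) to 154 (iTreg replicate 2) of them.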
